A study of Rattus norvegicus with 27 samples.

Results

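The transcripts described are those of 10 genes, the endoplasmic reticulum (ER) chaperones and close partners Hspa5, Hsp90b1, Calr, Canx, Pdia3, Pdia4, Pdia6, Hyou1, Herpud1 and Dnajb9. They were found by symbol, among the probe sets to which the platform annotation gives a single gene symbol. Of 18166 genes with such a probe set, 12716 were bright enough to be tested, and all 10 were among them. Each had 1 probe set.

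The ER folds proteins that enter the secretory pathway and the cell membrane. When unfolded proteins build up in it, the sensors Ern1 (IRE1), Eif2ak3 (PERK) and Atf6 start the unfolded protein response. Atf6 and the spliced form of Xbp1 are known to raise the transcription of ER chaperones, while Eif2ak3 phosphorylates the initiation factor eIF2 alpha, which lowers translation in general and favours that of Atf4. Transient brain ischemia is a known trigger of eIF2 alpha phosphorylation in neurons, and the CA1 field of the hippocampus is known to lose its pyramidal neurons days after global ischemia, while CA3 is more resistant.

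The animals were male Long Evans rats. The ischemic group (8R) underwent 10 min of normothermic global ischemia, made by closing both carotid arteries under low blood pressure, and then 8 h of reperfusion. The control group (NIC) was sham operated. CA1 and CA3 were dissected, the regions of 5 rats made 1 pool, and the supernatant left after mitochondria were spun down was split into total RNA and a polysome pellet collected over a sucrose pad. There were 27 arrays in 8 groups, with 4 arrays each in 8R CA1 total, 8R CA3 total and 8R CA3 polysome RNA, 3 in 8R CA1 polysome RNA, and 3 in each NIC group. Each array thus averages 5 animals and all cell types of the piece, the pellet is not resolved by ribosome number, and only 1 time point was taken. Ages were not given in the sources used here.

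Values are intensities of Affymetrix Rat Gene 2.0 arrays on a linear scale. Differences were tested on log2(intensity + 16) with limma in 1 fit of all arrays, with a moderated variance. A gene is called where its Benjamini-Hochberg adjusted p, taken over the 12716 tested genes, is under 0.05, and every adjusted p below comes from limma. Errors of log2 differences are standard errors (SE), and folds are 2 to the power of the log2 difference, which understates the change of dim transcripts.

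The array medians ran from 25.6 to 38.1, and the scaling between arrays is unknown. The arrays of 8R pool 4 deviated from their groups together, with pairwise correlations of 0.54 to 0.78 over 6 pairs. Total and polysome arrays of 8R pools 1 to 3 in the same region correlated at 0.28 to 0.42. In total RNA, pool 2 had the lowest median deviation of the 10 genes, at -0.23 log2 in 8R CA1 and -0.16 in 8R CA3. That pool had no CA1 polysome array. Wfs1, a CA1 marker, averaged 600 ± 74.8 in NIC CA1 and 181 ± 6.28 in NIC CA3 total RNA (SD, n = 3 each), in the direction of the labels. Some marker genes of cell types differed between 8R and NIC. Of all tested genes, 20.1% were called higher in CA1 total and 14.2% in CA3 total RNA. In polysome RNA these shares were 4.87% in CA1 and 2.38% in CA3. The shares called lower were 6.15% in CA1 total, 1.34% in CA3 total, 3.46% in CA1 polysome and 0.275% in CA3 polysome RNA. Gfap counts in both astrocyte lists. In CA1 total RNA, 5 of 11 tested astrocyte markers were higher, with summed intensities of 5303 to 6019 in 8R and 4104 to 4359 in NIC. Of 10 tested reactive astrocyte markers 6 were higher (2034 to 2564 in 8R, 961 to 988.5 in NIC), and of 11 microglia markers 4 were (734.5 to 873.7 in 8R, 608.8 to 654.8 in NIC). Of 9 neuron markers 3 were lower, with sums of 9986 to 11840 in 8R and 11260 to 11870 in NIC. In CA3 total RNA 3 of 11 astrocyte (sums of 4230 to 5240 in 8R, 3813 to 3889 in NIC), 4 of 10 reactive astrocyte (1340 to 1982 in 8R, 781.2 to 819.9 in NIC) and 3 of 11 microglia markers (706 to 784.5 in 8R, 528.4 to 619.1 in NIC) were higher. Of the neuron markers 1 was higher and 1 lower there (11740 to 13880 in 8R, 12190 to 12870 in NIC). In CA1 polysome RNA 5 of 9 neuron markers were lower (12160 to 13650 in 8R, 14810 to 15550 in NIC). Astrocyte (3), reactive astrocyte (5) and microglia (4) markers were higher there, with sums of 5835 to 7253 in 8R and 4983 to 5274 in NIC, 2143 to 3216 in 8R and 1161 to 1217 in NIC, and 791.4 to 1022 in 8R and 642.7 to 672.3 in NIC. The same lists had 1, 4 and 2 higher markers in CA3 polysome RNA, where no neuron marker was called. Of 9 tested CA1 pyramidal markers 1 was higher and 3 lower in CA1 total RNA (1204 to 1959 in 8R, 1591 to 1747 in NIC), and 1 was lower in CA1 polysome RNA (1583 to 2615 in 8R, 2103 to 2525 in NIC). Sums also hold listed markers too dim to be tested. None of these markers was at 0 in any group, and their part in the results below was not tested. In RNA of a whole region, a loss of cells of one type and a loss of RNA per cell cannot be told apart.

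The upstream sequences of the group are shown because several members rose together and because the ER stress response element (ERSE) in such sequences is the known binding site of Atf6 and Xbp1 with the CCAAT-binding factor NF-Y. RefSeq promoter entries (build GRCr8) were matched for 8 of the 10 members by symbol. Pdia3 and Pdia6 had no entry. The 250 bases before the start of Hspa5 (chr3:38452766-38453015, plus strand) and of Hsp90b1 (chr7:23012294-23012543, minus strand) are printed 5′ to 3′ with the ends of the ERSE in capitals.
Hspa5: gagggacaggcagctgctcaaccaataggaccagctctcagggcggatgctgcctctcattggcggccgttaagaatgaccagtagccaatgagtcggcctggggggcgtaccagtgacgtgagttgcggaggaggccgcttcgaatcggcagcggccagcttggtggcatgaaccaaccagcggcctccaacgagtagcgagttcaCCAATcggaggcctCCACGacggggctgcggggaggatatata
Hsp90b1: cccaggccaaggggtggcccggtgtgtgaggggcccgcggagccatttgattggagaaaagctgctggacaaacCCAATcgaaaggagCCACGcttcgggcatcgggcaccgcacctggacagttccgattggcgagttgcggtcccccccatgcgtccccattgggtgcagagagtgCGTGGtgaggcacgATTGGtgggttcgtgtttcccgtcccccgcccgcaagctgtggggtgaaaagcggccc
The Hspa5 element ends close to the start, at -43 to -25, and Hsp90b1 has 1 element on each strand, at -176 to -158 and at -72 to -54.

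The ERSE was searched as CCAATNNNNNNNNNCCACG on both strands of the 250 bases before the start. It was present in 4 of the 8 members with an entry, namely Hspa5, Hsp90b1, Calr and Canx, and in 21 of 27457 genes with a promoter entry (0.0765%). Its ends are themselves the shorter motifs CCAAT, which 8 members and 36.1% of genes held, and CCACG, which 7 members and 29.5% of genes held. The related ERSE-II, searched as ATTGGNCCACG, was present in Hyou1 and Herpud1 and in 14 genes in all (0.051%). Short windows around these sites are shown for comparison, with both ends of the motif in capitals, for Calr (chr19:40213130-40213158, plus strand), Canx (chr10:35158064-35158092, minus strand), Hyou1 (chr8:53602689-53602709 and chr8:53602789-53602809, plus strand) and Herpud1 (chr19:10614816-10614836, minus strand).
Calr: caacgCGTGGtcgaccctgATTGGcccag
Canx: cttgtCCAATcatcacgctCCACGaagaa
Hyou1, first: cgtgaCGTGGgCCAATccgca
Hyou1, second: ttctaCGTGGcCCAATgggga
Herpud1: cgctgATTGGgCCACGttggg
The Calr and Hyou1 windows hold their motif on the reverse strand. The Herpud1 window lies inside the annotated span of the gene (chr19:10604360-10624168), so the start used for it is an internal one. The unfolded protein response element TGACGTGG was found in Hyou1, where it overlaps the first ERSE-II, and in 0.594% of genes. The element TGATGNAA, through which Atf4 and its partners bind, was found in Herpud1 and in 3.58% of genes. Neither ERSE form was found in the windows of Pdia4 and Dnajb9. A match is a description of the letters and not a binding site. The motifs were searched because they were already known for this response, so their shares here are no test of enrichment.

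In total RNA, 8 of the 10 genes were higher in 8R than in NIC in CA1 and 9 of 10 in CA3, and none was lower. The 10 genes were chosen with earlier results of these data known, so their contrast with all genes is a description. The share of all tested genes called higher was 20.1% in CA1 and 14.2% in CA3, and 6.15% and 1.34% were called lower. The median log2 difference of the 10 genes was 0.73 in CA1 and 0.71 in CA3, while the median of all tested genes was 0.04 in CA1 and 0.09 in CA3. Every 8R array lay above every NIC array for 9 of the 10 genes in CA1, which 24.5% of all genes showed, and for 10 of 10 in CA3, which 20.2% showed. In polysome RNA only 2 of the 10, Hspa5 and Herpud1, were called higher in each region, and none was lower. Of all genes, 4.87% were called higher and 3.46% lower in CA1 polysome RNA, and 2.38% higher and 0.275% lower in CA3 polysome RNA. The medians in polysome RNA were 0.13 for the 10 genes and 0.01 for all genes in CA1, and 0.16 for the 10 genes and 0.04 for all genes in CA3. The scaling of arrays moved the balance of calls over all genes: higher genes made up 76.6% of the calls in CA1 total RNA and 91.4% of those in CA3 total RNA, and 54.2% and 66.2% after quantile normalization. For CA1 polysome RNA they made up 58.5%, and 47% with arrays scaled to the same median, and for CA3 polysome RNA 89.6%, 72.4% after quantile normalization and 49.1% with arrays scaled to the same median. That last scaling moved the median of all genes in CA3 polysome RNA to -0.10. Under either scaling the members called in total RNA were 8 or 9 in CA1 and 8 in CA3.

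**Figure D1:**
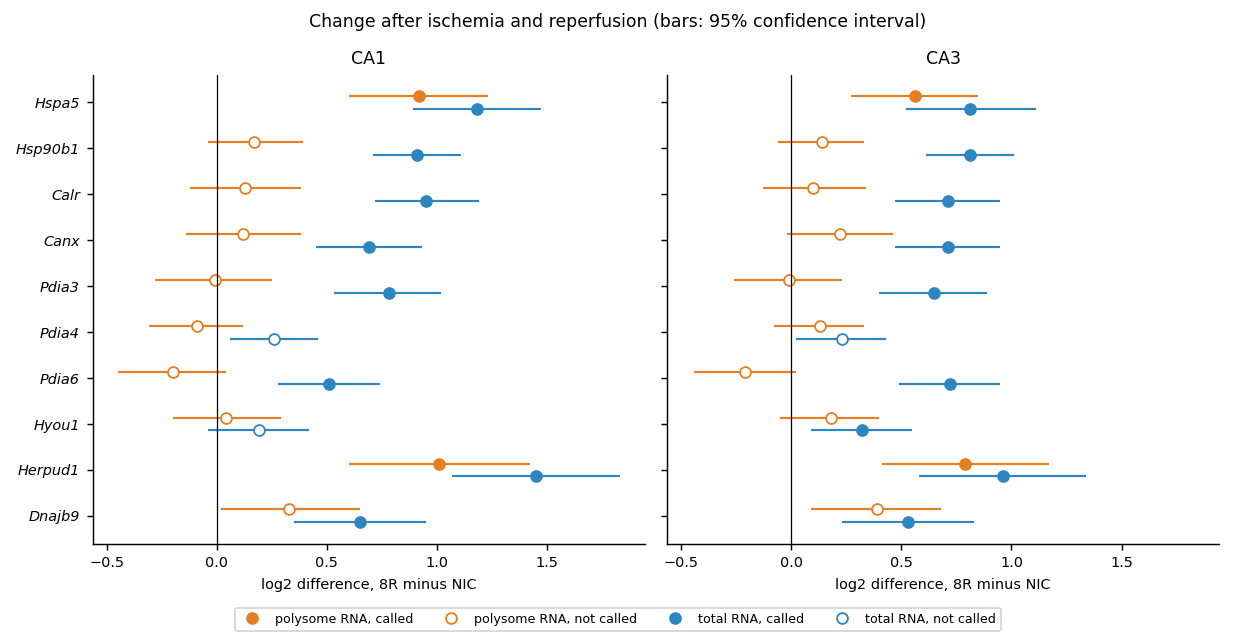
Log2 difference of 8R minus NIC on the log2(intensity + 16) scale for each gene in CA1 (left) and CA3 (right), in polysome RNA (orange) and total RNA (blue), with 95% confidence intervals and filled points for called genes. In polysome RNA Hspa5 and Herpud1 were called in each region, and in total RNA 8 genes in CA1 and 9 in CA3.

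The central chaperone of the ER is Hspa5 (BiP, GRP78), an Hsp70 protein that binds unfolded chains and holds the stress sensors inactive. In CA1 total RNA its intensity was 416, 327, 359 and 482 in 8R pools 1 to 4, against 167, 148 and 178 in NIC. The lowest 8R pool was well above the highest NIC pool, and Hspa5 rose 2.27-fold (log2 difference 1.18 ± 0.14, adjusted p = 4.64e-07). CA3 total RNA held 296, 213, 259.7 and 307 in 8R, against 147, 137 and 151 in NIC. Again no arrays overlapped, and the log2 difference was 0.81 ± 0.14 (adjusted p = 0.000256).

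Hspa5 was also higher on polysomes. In CA1 polysome RNA it was 426, 436 and 652 in 8R pools 1, 3 and 4, against 251, 254 and 259.9 in NIC, a log2 difference of 0.92 ± 0.15 (adjusted p = 0.000263). The pool 4 array was the highest, and without pool 4 the difference was 0.72 (adjusted p = 1.33e-04). In CA3 polysome RNA it was 291, 268, 228 and 351 in 8R, against 175, 195 and 188 in NIC. These groups did not overlap, with a log2 difference of 0.56 ± 0.14 (adjusted p = 0.0316). That call was lost with quantile normalization (0.58, adjusted p = 0.065) and with arrays scaled to the same median (0.41, adjusted p = 0.114).

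The partners of Hspa5 differed in size of response. Dnajb9 (ERdj4) is a J-domain protein that delivers clients to Hspa5 and helps it bind Ern1. In CA1 total RNA it was 94.5, 86.6, 96.3 and 140.5 in 8R, against 70.3, 44.4 and 67.2 in NIC, with the pool 4 array highest and no overlap. The rise was 0.65 ± 0.14 log2 in CA1 (adjusted p = 0.00112) and 0.53 ± 0.14 log2 in CA3 (adjusted p = 0.0124). In polysome RNA Dnajb9 was not called, although the arrays did not overlap in either region (log2 differences 0.33 in CA1 and 0.39 in CA3, adjusted p = 0.187 and 0.136).

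Hyou1 (GRP170), a large chaperone that also exchanges the nucleotide on Hspa5, was the member with the smallest difference in CA1 total RNA. It was 90.3, 64.6, 83.7 and 79.7 in 8R, against 64.1, 72.2 and 66.7 in NIC, and the groups overlapped (log2 difference 0.19 ± 0.11, adjusted p = 0.23). In CA3 it was 96.9, 72.0, 79.6 and 76.5 in 8R, against 52.3, 66.8 and 66.4 in NIC. The CA3 difference of 0.32 ± 0.11 was at the limit of the threshold (adjusted p = 0.0496). With the pool as a block in the fit it was not called (adjusted p = 0.0697). The CA3 call was made under 7 of 19 alternatives, with an adjusted p of 0.00508 to 0.248.

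Hsp90b1 (GRP94), the Hsp90 of the ER, folds integrins and Toll-like receptors among other clients. In CA1 total RNA it was 233, 178, 219 and 238 in 8R, against 106, 102 and 114 in NIC. CA3 total RNA gave 183, 146, 171 and 181 in 8R, against 88.2, 93.7 and 87.8 in NIC. Both pairs of groups lay far apart, and Hsp90b1 rose by 0.91 ± 0.10 log2 in CA1 (adjusted p = 6.5e-08) and 0.81 ± 0.10 log2 in CA3 (adjusted p = 2.3e-06).

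On polysomes the 8R and NIC arrays of the same transcript lay closer together. Hsp90b1 was 218, 225 and 221 in 8R CA1 polysome RNA, against 188, 204 and 192 in NIC. The 8R arrays were all above the NIC arrays, but the difference was 0.17 ± 0.10 and was not called (adjusted p = 0.332). In CA3 polysome RNA it was 155, 156, 139.5 and 131 in 8R, against 122, 133 and 136 in NIC, with overlap and a log2 difference of 0.14 ± 0.10 (adjusted p = 0.464).

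**Figure D2:**
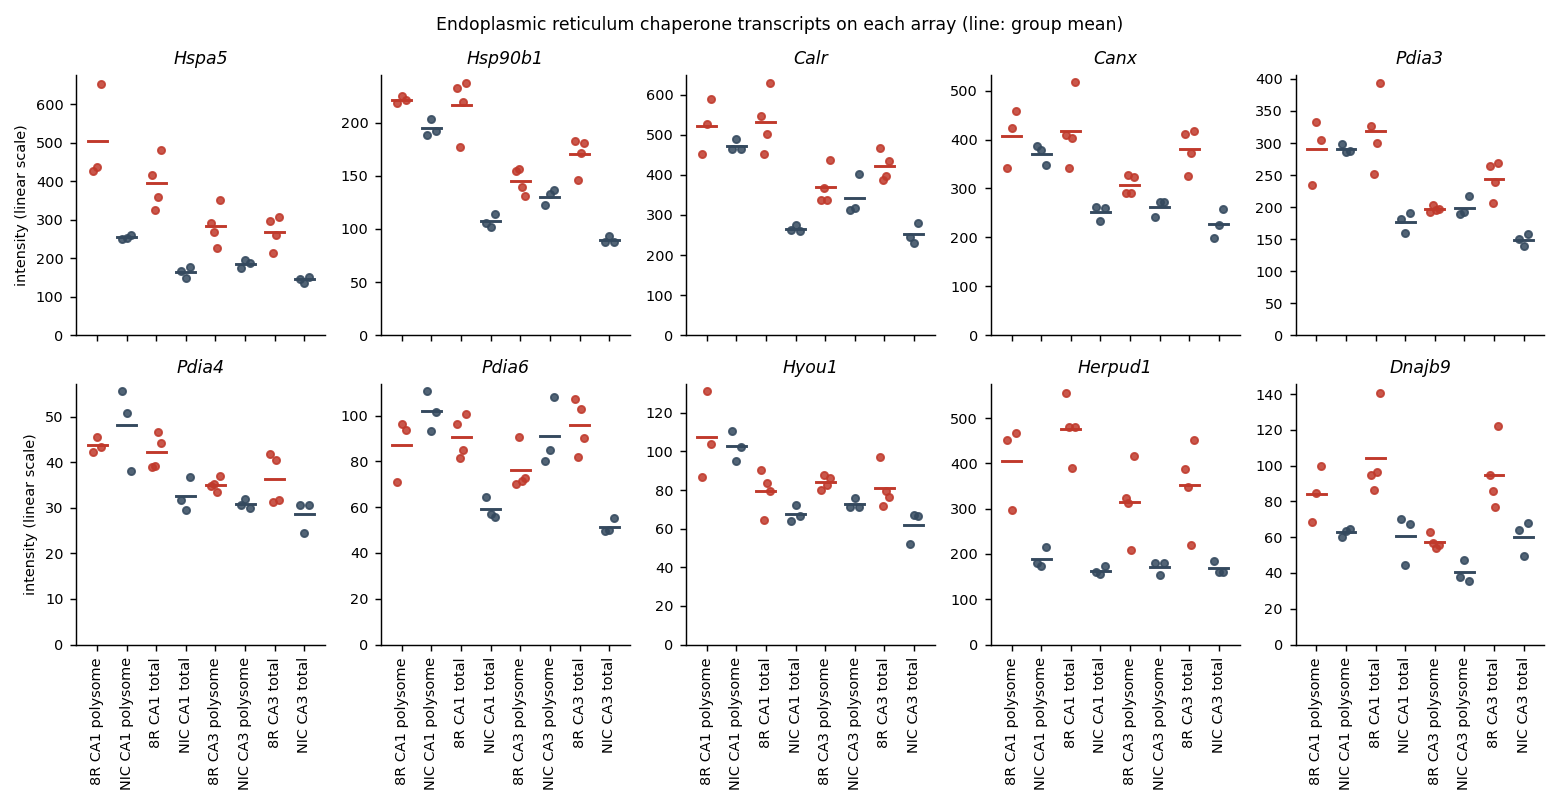
Intensity (linear scale) of each of the 10 genes on every array, with 8R in red, NIC in dark blue and a line at the group mean. Hspa5 and Herpud1 were higher in 8R in all pairs of groups, whereas Calr, Pdia3 and Pdia6 overlapped in polysome RNA and were separated in total RNA.

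Calr and Canx are the lectin chaperones, soluble and membrane-bound, that retain glycoproteins in the ER until their sugars are trimmed. Calr was 547, 452, 502 and 630.2 in 8R CA1 total RNA, against 262, 274 and 261 in NIC. Canx was 410.2, 342, 404 and 517 in the same 8R arrays, against 261, 233 and 259.6 in NIC. Neither gene's groups overlapped, with log2 differences of 0.95 ± 0.12 for Calr (adjusted p = 4.93e-07) and 0.69 ± 0.12 for Canx (adjusted p = 6.31e-05).

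Both rose in CA3 total RNA by 0.71 ± 0.12 log2 (adjusted p = 0.000113 for Calr and 0.00015 for Canx). Neither was called on polysomes. Calr was 452, 526 and 589 in 8R CA1 polysome RNA, against 465, 489 and 465 in NIC, and 337, 366, 337 and 438 in 8R CA3 polysome RNA, against 312, 317 and 401 in NIC. Both pairs overlapped, and the log2 differences were 0.13 and 0.10 (adjusted p = 0.573 and 0.666). Canx differed on polysomes by 0.12 in CA1 and 0.22 in CA3 (adjusted p = 0.614 and 0.315).

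The protein disulfide isomerases form and rearrange disulfide bonds. Pdia3 (ERp57), which works with Calr and Canx on glycoproteins, was 326, 252, 299.9 and 394 in 8R CA1 total RNA, against 181, 160.3 and 190.3 in NIC. It rose without overlap by 0.78 ± 0.12 log2 in CA1 (adjusted p = 1.48e-05) and by 0.65 ± 0.12 log2 in CA3 (adjusted p = 0.000418). In CA1 polysome RNA it was 234, 333 and 304 in 8R, against 298, 287 and 287 in NIC. The NIC arrays lay inside the range of the 8R arrays there, and Pdia3 differed by -0.01 log2 in both regions (95% confidence intervals -0.28 to 0.25 in CA1 and -0.26 to 0.23 in CA3).

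Pdia6 (P5), which limits the signalling of Ern1 and Eif2ak3, had the lowest log2 differences of the 10 genes in polysome RNA. In CA3 total RNA it was 107, 82.1, 103 and 90.2 in 8R, against 49.4, 49.96 and 55.2 in NIC, a rise of 0.72 ± 0.11 log2 (adjusted p = 6.49e-05). In CA3 polysome RNA it was 69.9, 90.8, 71.5 and 72.6 in 8R, against 80.2, 84.9 and 108 in NIC. Of the 4 8R arrays 3 were below all NIC arrays there, with a log2 difference of -0.21 ± 0.11 that was not called (adjusted p = 0.302). In CA1 Pdia6 rose by 0.51 ± 0.11 log2 in total RNA (adjusted p = 0.00109), and the polysome difference was -0.20 ± 0.12 (adjusted p = 0.33).

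Pdia4 (ERp72) was dim, at 24.6 to 55.6 over all 27 arrays, and was not called in any of the comparisons of 8R with NIC. Its intensity was 39.0, 39.2, 46.6 and 44.1 in 8R CA1 total RNA, against 31.7, 29.5 and 36.7 in NIC. The groups did not overlap, but the log2 difference of 0.26 ± 0.10 missed the threshold (adjusted p = 0.052), and it passed with quantile normalization. In CA3 total RNA the difference was 0.23 ± 0.10 (adjusted p = 0.123), and with weights for array quality it passed.

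Herpud1 encodes a membrane protein of the ER that serves in ER-associated degradation rather than folding. It had the largest log2 difference of the 10 genes in each of the comparisons of 8R with NIC. In CA1 total RNA it was 556, 481, 389 and 480.3 in 8R, against 161, 155 and 174 in NIC (2.73-fold, log2 difference 1.45 ± 0.19, adjusted p = 1.15e-06). CA3 total RNA gave 387, 349, 219 and 452 in 8R, against 184, 161 and 159 in NIC. Pool 3 was lowest and pool 4 highest of the CA3 8R arrays, and the log2 difference was 0.96 ± 0.19 (adjusted p = 0.000712).

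Herpud1 was also higher on polysomes. It was 451, 296 and 467 in 8R CA1 polysome RNA, against 181, 173 and 215 in NIC (log2 difference 1.01 ± 0.20, adjusted p = 0.0016). In CA3 polysome RNA it was 323, 312, 209 and 417 in 8R, against 179.9, 153 and 179.5 in NIC (0.79 ± 0.19, adjusted p = 0.0212). No 8R array fell to the NIC range in either region. The CA3 call was lost with quantile normalization (adjusted p = 0.0534) and with arrays scaled to the same median (adjusted p = 0.0718).

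Across the 10 genes, every 8R array lay above every NIC array in CA1 polysome RNA for 4 (Hspa5, Hsp90b1, Herpud1 and Dnajb9), which 13.0% of all tested genes showed. In CA3 polysome RNA this held for 6 (Hspa5, Canx, Pdia4, Hyou1, Herpud1 and Dnajb9), against 13.2% of all genes. Without the pool 4 arrays the counts of called genes were again 8 in CA1 total, 9 in CA3 total, 2 in CA1 polysome and 2 in CA3 polysome RNA. In CA3 polysome RNA the count of 2 was 0 or 1 after leaving out any one of 5 of the 7 arrays. These were each of the 3 NIC arrays, with 0, and 8R replicates 1 and 4, with 1 and 0.

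The response of CA1 was next set against that of CA3. None of the 10 genes was called in total RNA or in polysome RNA, and none had an unadjusted p under 0.05. Over all genes 0.0236% were called with the larger difference in CA1 total RNA and 0% with the smaller, and 0.00786% were called in each direction in polysome RNA. At an unadjusted p under 0.05 there were 663 genes in total RNA and 707 in polysome RNA. The largest CA1 excess in total RNA was that of Herpud1, at 0.49 log2 (95% confidence interval -0.05 to 1.03), followed by Hspa5 at 0.37 (-0.04 to 0.78). Pdia6 had the lowest value, at -0.21 (-0.54 to 0.11). These intervals are wide beside the responses themselves. They come from a fit that treated CA1 and CA3 arrays as independent. With the pool number of both regions as a block, 0 members were called in either fraction.

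Because each supernatant was split, polysome and total arrays with the same pool number were set against each other. The labels give that number in sample codes, and the codes of NIC polysome arrays carry a suffix that is not explained, so the pairing of NIC arrays is less sure than that of 8R arrays. The log2 difference of polysome minus total RNA, taken in each pool, had a median over the 10 genes of -0.26, 0.06 and -0.09 in 8R CA1 pools 1, 3 and 4, against 0.62, 0.62 and 0.51 in the NIC CA1 pools. In CA3 these medians were -0.34, 0.05, -0.25 and -0.19 in 8R pools 1 to 4, against 0.28, 0.34 and 0.22 in NIC. In both regions all 8R pools were below all NIC pools. Medians over all tested genes were 0.14 to 0.19 in 8R CA1, against 0.21 to 0.25 in NIC CA1, and -0.03 to 0.01 in 8R CA3, against -0.02 to 0.05 in NIC CA3.

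**Figure D3:**
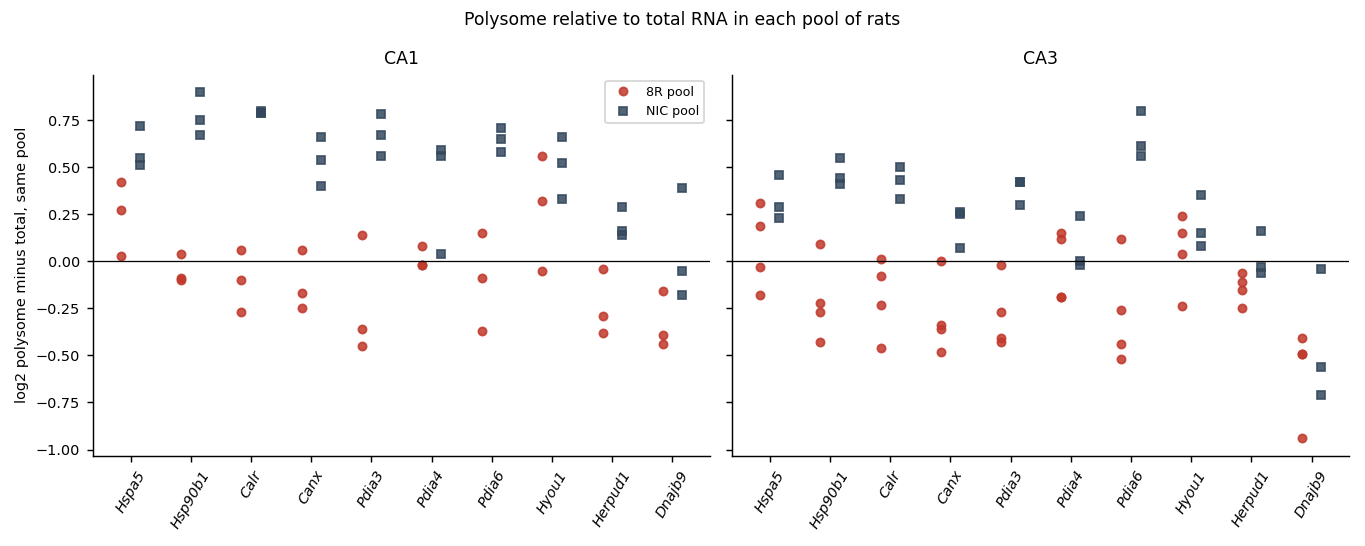
Log2 difference of polysome minus total RNA of the same pool for each gene, in 8R (red circles) and NIC (dark blue squares), in CA1 (left) and CA3 (right). All 8R pools lay below all NIC pools for 7 genes in CA1 and for 5 in CA3.

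The test of this change, polysome response minus total response, used group means and not the pairing. It called 4 of the 10 genes lower in CA1 and 2 in CA3, and none higher. Over all genes 3.41% were called lower and 0.409% higher in CA1, and 0.110% lower and 0.0550% higher in CA3. In CA1 the 4 were Calr (-0.82 ± 0.17, adjusted p = 0.0107), Pdia3 (-0.79 ± 0.18, adjusted p = 0.0156), Hsp90b1 (-0.74 ± 0.14, adjusted p = 0.00896) and Pdia6 (-0.71 ± 0.16, adjusted p = 0.0179). In CA3 they were Pdia6 (-0.93 ± 0.16, adjusted p = 0.00871) and Hsp90b1 (-0.67 ± 0.14, adjusted p = 0.0296). The median over the 10 genes was -0.50 in CA1 and -0.37 in CA3, and that of all genes was -0.06 and -0.07.

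Individual pools show how the change was made up. Hsp90b1 had polysome minus total differences of -0.09, 0.04 and -0.10 log2 in 8R CA1 pools, against 0.75, 0.90 and 0.67 in NIC CA1 pools. Calr had -0.27, 0.06 and -0.10 in 8R, against 0.79, 0.80 and 0.79 in NIC. Pdia6 in CA3 had -0.52, 0.12, -0.44 and -0.26 in 8R, against 0.56, 0.61 and 0.80 in NIC. For these genes the polysome level relative to total RNA was lower in every ischemic pool than in any control pool. Every 8R pool was below every NIC pool in CA1 for 7 genes (Calr, Canx, Herpud1, Hsp90b1, Hspa5, Pdia3 and Pdia6), which 29.2% of all genes showed, and in CA3 for 5 (Calr, Canx, Hsp90b1, Pdia3 and Pdia6), which 21.5% showed.

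With the pool as a replicate block, 6 genes were called lower in CA1, adding Canx (-0.60, adjusted p = 0.00285) and Pdia4 (-0.36, adjusted p = 0.0432). In CA3 the block gave 5, adding Calr (-0.61, adjusted p = 0.00336), Pdia3 (-0.66, adjusted p = 0.0034) and Canx (-0.49, adjusted p = 0.0137). Without pool 4 there were 5 in each region. Quantile normalization left 2 in CA1 (Hsp90b1 and Pdia6) and 1 in CA3 (Pdia6), with Calr at -0.59 (adjusted p = 0.0712) and Pdia3 at -0.58 (adjusted p = 0.0631) in CA1. Higher genes made up 10.7% of all calls in CA1 and 33.3% in CA3, and 34.2% and 55.6% after quantile normalization. With arrays scaled to the same median 4 members were called in CA3, where higher genes made up 21.7% of calls and the median of all genes was -0.19. The CA1 count was 2 without NIC CA1 total replicate 2. It was 5 without 8R CA1 total replicate 2, the array of pool 2, which had no CA1 polysome array. The CA3 count was 0 without NIC CA3 polysome replicate 3 and 4 without 8R CA3 total replicate 4. It was 1 without NIC CA3 polysome replicate 2, any NIC CA3 total array, 8R CA3 polysome replicate 3 or 4, or 8R CA3 total replicate 1 or 3.

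Hspa5 and Herpud1, the genes called higher on polysomes, were not called in this test. Hspa5 had polysome minus total differences of 0.03, 0.27 and 0.42 in 8R CA1 pools, against 0.55, 0.72 and 0.51 in NIC, and its change was -0.27 (95% confidence interval -0.69 to 0.16, adjusted p = 0.455). Herpud1 had -0.29, -0.38 and -0.04 in 8R, against 0.16, 0.14 and 0.29 in NIC, a change of -0.44 (-1.0 to 0.12, adjusted p = 0.336). Whether the changes of Hspa5 and Herpud1 differ from those of Hsp90b1 or Calr was not tested. Hyou1 (-0.14 in CA1 and -0.15 in CA3) and Dnajb9 (-0.32 in CA1 and -0.14 in CA3) were not called either.

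The fractions were also compared in the controls. In polysome RNA of NIC CA1 8 of the 10 transcripts were higher than in total RNA and none lower, led by Calr (0.79 ± 0.12) and Hsp90b1 (0.77 ± 0.10), and Herpud1 (0.19) and Dnajb9 (0.06) were not called. After quantile normalization 6 were called, without Hspa5 (0.26, adjusted p = 0.254) and Canx (0.22, adjusted p = 0.216). Of all genes 39.4% were called higher and 4.62% lower there. In NIC CA3 4 were higher, Pdia6 (0.66 ± 0.12), Hsp90b1 (0.47 ± 0.10), Calr (0.42 ± 0.12) and Pdia3 (0.38 ± 0.13), and Dnajb9 was lower (-0.44 ± 0.15, adjusted p = 0.0262). The Dnajb9 call was lost after quantile normalization (-0.32, adjusted p = 0.127), with arrays scaled to the same median (-0.26, adjusted p = 0.161), with an offset of 64, and without NIC CA3 polysome replicate 1 or 3 or NIC CA3 total replicate 1 or 3. It was made under 11 of 18 alternatives, with an adjusted p of 0.00131 to 0.161. Of all genes 21.5% were called higher and 16.9% lower there. With the replicate block Hspa5 joined the higher genes in NIC CA3 (0.33, adjusted p = 0.0156). The median of all genes was 0.20 in NIC CA1, and 0.04 after quantile normalization, and in NIC CA3 it was -0.00, and 0.19 with arrays scaled to the same median. The percentage of calls that were higher moved with it, at 89.5% in NIC CA1 (65.6% after quantile normalization, 78.5% with the same median) and 56% in NIC CA3 (66.5% and 84%). With arrays scaled to the same median 7 members were called higher in NIC CA3 and none lower, with Hspa5, Canx and Hyou1 gained. In NIC CA3 the count of called members was 2 after quantile normalization and 2 without NIC CA3 polysome replicate 3.

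Between the control regions, none of the 10 genes was called in total RNA, where 2.41% of all genes were called higher and 1.06% lower in CA1. At an unadjusted p under 0.05 there was 1 member, Hsp90b1 (0.22 ± 0.10), and 1654 genes in all. In polysome RNA 8 of 10 were called higher in CA1 than in CA3 and none lower, by 0.42 to 0.53 log2, and Pdia6 and Herpud1 (0.14 each) were not called. The background was high, with 27.7% of all genes called higher and 0.731% lower and a median over all genes of 0.23. After quantile normalization or scaling to the same median 0 of the 10 were called, the median of all genes was 0.00 and -0.05, and higher genes made up 61.5% and 48.5% of calls, against 97.4% before.

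On the deposited scale, the order of group levels differed among the members. This order was not recomputed under another scaling of the arrays. Hspa5 was highest in 8R CA1 polysome RNA (505 ± 128, SD, n = 3), followed by 8R CA1 total RNA (396 ± 68.2, n = 4), and lowest in NIC CA3 total RNA (145 ± 7.14, n = 3). Only 1 pair of neighbours in that order did not overlap, NIC CA1 polysome RNA (255 ± 4.44) and NIC CA3 polysome RNA (186 ± 10.1). Between these groups 27.7% of all genes were called higher in CA1. The Hspa5 call between them was lost after quantile normalization and after scaling to the same median. Herpud1 had its 4 highest means in the 8R groups, 315 ± 85 to 476 ± 68, and its 4 lowest in NIC, 163 ± 9.48 to 190 ± 22.5, and each group overlapped its neighbours. Hsp90b1 and Calr had NIC CA1 polysome RNA as the third highest group (195 ± 8 and 473 ± 13.9), above every 8R CA3 group. Pdia6 and Pdia4 had NIC CA1 polysome RNA as the highest group of all (102 ± 8.82 and 48.2 ± 9.02).

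Over the 27 arrays, the log2 values of the 10 genes correlated pairwise at 0.23 to 0.94, with a median of 0.72 over 45 pairs. The points share the groups, the pools and the array scaling, so these are descriptions. The highest values, 0.92 to 0.94, were among Hsp90b1, Calr, Canx and Pdia3. Herpud1 correlated with Hspa5 at 0.85 and with Pdia4, Pdia6 and Hyou1 at 0.32 to 0.38. The next rankings left out the 10 genes and symbols that are locus or clone names. Among the other tested genes, those with values most like Hspa5 were Fbxo33 (0.960), Slc7a1 (0.959), Slc3a2 (0.949), Hspa8 (0.949) and Rcan2 (0.947). Those most like Herpud1 were Cdr2 (0.968), Ddit3 (0.967), Ppp1r15a (0.964), Gadd45b (0.961) and Chac1 (0.955).

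The other genes of the ER were taken as lists, chosen with earlier results of these data known. Among other chaperones and folding enzymes of the ER, 2 of 37 tested genes were higher in CA1 polysome and 1 in CA3 polysome RNA, against 19 in CA1 total and 18 in CA3 total RNA, and none was lower. For these lists the shares of all genes called higher were 4.87% in CA1 polysome, 2.38% in CA3 polysome, 20.1% in CA1 total and 14.2% in CA3 total RNA, so the polysome counts of this list lie near the background. Tmx1, a membrane-bound thioredoxin-like oxidoreductase, averaged 129 in 8R and 45.0 in NIC CA1 total RNA (log2 difference 1.24 ± 0.12), and the prolyl isomerase Fkbp2 averaged 136 in 8R and 59.1 in NIC (0.97 ± 0.23). The collagen chaperone Serpinh1 was called in both polysome comparisons (0.63 in each). The list's medians were 0.07 in CA1 polysome, 0.19 in CA3 polysome, 0.33 in CA1 total and 0.31 in CA3 total RNA. The CA3 total count was 9 without 8R CA3 total replicate 1 and 12 after quantile normalization.

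For the translocon, signal sequence and glycosylation machinery the counts were 0 of 23 higher in each polysome comparison, against 12 in CA1 total and 10 in CA3 total RNA. Ssr3, a subunit of the translocon-associated complex, averaged 280 in 8R and 141 in NIC CA1 total RNA (0.91 ± 0.09). For ER-associated degradation they were 1 of 28 higher in CA1 polysome RNA and 0 in CA3 polysome RNA, against 14 higher and 1 lower in each total comparison. The CA1 polysome count of degradation genes was unstable, at 5 without 8R CA1 polysome replicate 2, 4 after quantile normalization and 7 with array weights. In CA3 total RNA the calls of these lists were few without NIC CA3 total replicate 2, at 2 for the translocon and 5 for degradation, and after quantile normalization they were 4 and 9. Ube2g2, a ubiquitin-conjugating enzyme of this pathway, was the one called on CA1 polysomes (log2 difference 0.57 ± 0.10), with 0.71 ± 0.10 in CA1 total RNA. In the test of polysome response minus total response in CA1, 4 of 37 other chaperones, 2 of 28 degradation genes and 3 of 23 translocon genes were lower, beside 3.41% of all genes, Tmx1 most among those named (-0.95 ± 0.17). In CA3 1 other chaperone was lower, Tmx2 (-0.72 ± 0.15).

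The list of sensors, transcription factors and related genes of the unfolded protein response gave another pattern of counts. The genes of this list named below do not include the sensors Ern1, Eif2ak3 and Atf6. Of 22 tested, 9 were higher in CA1 polysome and 9 in CA1 total RNA, 6 in CA3 polysome and 12 in CA3 total RNA, and none was lower. Leaving out 1 array gave 5 at the lowest in CA1 polysome (without NIC replicate 3 or 8R replicate 3), 2 in CA3 polysome (without NIC replicate 2 or 3 or 8R replicate 4) and 5 in CA3 total RNA (without NIC replicate 2). Quantile normalization gave 8 in CA1 polysome, 9 in CA1 total, 3 in CA3 polysome and 4 in CA3 total RNA, and without pool 4 the CA1 polysome count was 6. Ddit3 (CHOP), a transcription factor downstream of Atf4, averaged 195 in 8R and 46.0 in NIC CA1 polysome RNA (log2 difference 1.72 ± 0.24), and 189 in 8R and 40.5 in NIC CA1 total RNA (1.83 ± 0.23). Ppp1r15a (GADD34), which directs the dephosphorylation of eIF2 alpha, rose by 1.67 in CA1 polysome and 1.65 in CA1 total RNA. Atf4 itself rose by 0.93 in CA1 polysome and 0.82 in CA1 total RNA, and by 0.64 and 0.48 in the same fractions of CA3. Chac1, a glutathione-degrading enzyme induced through Atf4, rose by 1.42 in CA1 polysome and 1.47 in CA1 total RNA. In the test of polysome response minus total response 0 of the 22 genes were called in either region. Whether the lists differ from each other was not tested.

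**Figure D4:**
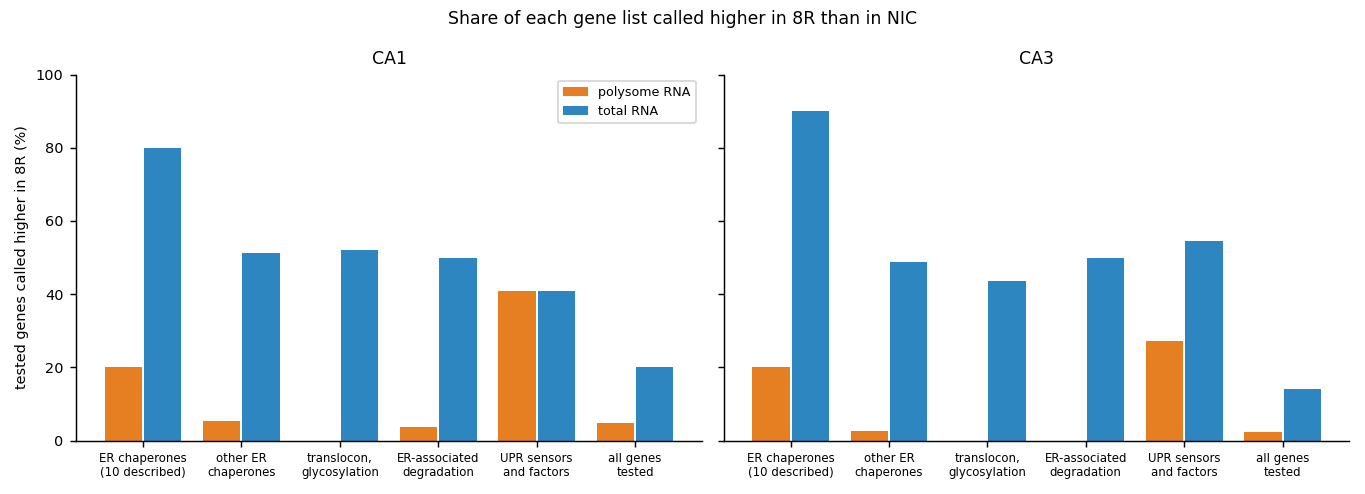
Percentage of the tested genes of each list called higher in 8R than in NIC, in polysome RNA (orange) and total RNA (blue), with all tested genes at the right of each panel. The unfolded protein response list had 9 of 22 genes called in CA1 polysome and 9 in CA1 total RNA, and the translocon list 0 and 12 of 23.

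The ERSE was also present in genes outside the group. Of the other 17 genes with an ERSE in the window, 12 were tested. In CA1 total RNA 4 were higher and none lower, with a median of 0.12, and in CA3 total RNA 5 were higher, with a median of 0.28. In each polysome comparison 1 was higher. Of the other 12 genes with an ERSE-II in the window, 7 were tested. In CA1 total RNA 1 of these was higher (median -0.02), and in CA3 total RNA 1 was (median 0.03). On polysomes 0 were higher in either region, and 0 were lower in any of these comparisons. Of all genes 20.1% were higher in CA1 total RNA, 14.2% in CA3 total RNA, 4.87% in CA1 polysome and 2.38% in CA3 polysome RNA. The genes named here were picked after their values were seen. Dnajc3, an Hspa5 co-chaperone that inhibits eIF2 alpha kinases, rose by 0.57 ± 0.14 in CA1 total RNA and differed by 0.09 on CA1 polysomes. Creld2, a folding factor induced by ER stress, differed by 0.05 in CA1 total RNA, and Xbp1 by 0.26 (adjusted p = 0.0929). Xbp1 was higher in CA3 total RNA (0.40 ± 0.11, adjusted p = 0.0166). The 1 gene called on polysomes in both regions was Zfand2a, a proteasome-binding stress gene, at 2.10 in CA1 and 1.94 in CA3.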

How the data were processed

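Polysome and total RNA of CA1 and CA3 were measured on 27 arrays in 8 groups, each array a pool of 5 rats, with the same RNA mass labelled for every array per the labels' protocols. Amounts of RNA per condition therefore do not appear in the values. The authors deposited 1 intensity for each probe set on each array, not log-transformed. The submitters' processing notes name PLIER and Affymetrix Expression Console without a version. Background correction and the scaling of arrays were not given in the sources used here. Linearity was read from the values.

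From these intensities, log2(intensity + 16) was computed. Of 36685 probe sets 18511 had 1 gene symbol in the platform annotation, 575 several and 17599 none, and each of 18166 genes was represented by its brightest probe set. Genes with a mean under the 30th percentile (5.39 log2) were left out. The 12 comparisons were two-sided tests by limma 3.58.1 (R 4.3.3). A single fit held a mean for each of the 8 groups, and the prior variance followed a trend over intensity, with residual degrees of freedom of 19 and prior ones of 10.1. The number of arrays limits the precision, and p-values measure the spread between arrays of the same group. Total and polysome arrays of a pool were treated as independent in the main fit. The fit was tested on simulated data. Alternatives were offsets of 1 and 64, quantile or same-median scaling, no filter on dim genes, the mean of all probe sets of a gene, no trend, array weights, a fit of the compared groups alone, a block by pool, and leaving out pool 4 or each array in turn.

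The members and lists were chosen with earlier results of these data known. Named genes are the 10 members, and up to 4 called genes of a list with the largest change in each comparison of 8R with NIC and up to 2 in the others. Also named are the 5 genes most correlated with Hspa5 and with Herpud1, leaving out members and symbols that are locus or clone names. Outside this rule, Wfs1 came from the CA1 marker list, and the genes named with the ERSE were picked after their values were seen. Total and polysome arrays of a pool come from 1 split supernatant, and the pool numbers were read from sample codes in the labels, where NIC polysome codes carry an unexplained suffix. Deviations of such pairs from their group means correlated at 0.28 to 0.77 in 8R and -0.04 to 0.22 in NIC. Whether CA1 and CA3 pools of a number share rats is not stated, and a block over both regions was a further alternative. In 8R, deviations of CA1 and CA3 arrays of the same fraction and pool number correlated at 0.12 to 0.78, with a median of 0.46. The median was -0.14 for different pool numbers of 8R, and 0.02 for the same number in NIC. Promoter sequences are RefSeq's, build GRCr8, and were searched with Python 3.11.15.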

Additional observations from a re-analysis of the deposited data

Results flagged for a closer look

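The polysome response was smaller than the total response by the interaction test for Hsp90b1 (-0.74 log2), Calr (-0.82), Pdia3 (-0.79) and Pdia6 (-0.71) in CA1, and for Hsp90b1 (-0.67) and Pdia6 (-0.93) in CA3. In CA1 every 8R pool had a lower polysome to total ratio than every NIC pool for each of the 4 genes, and the same held in CA3 for both. Of all tested genes 29.2% showed this in CA1 and 21.5% in CA3. These ratios come from the same arrays as the test. After quantile normalization the calls of Calr and Pdia3 in CA1 and of Hsp90b1 in CA3 were lost.

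Pdia6 in 8R CA3 polysome RNA had 1 array apart from the others. Its 4 values were 69.9, 90.8, 71.5 and 72.6, and the gap between the highest and its neighbour took up 0.862 of the range in log2. Chance sets about 1 in 20 such groups apart. All 10 genes were checked in every group of 4 arrays, and this was the only case, so chance alone can give it.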

How the results depend on the processing

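Over all comparisons and alternatives there were 249 recomputed counts of called members, and 217 were within 1.5 times the reported count. Counts of 0 that stayed at 0 are among these, as in both comparisons of the CA1 response with the CA3 response. No value of a single gene changed sign while called. Quantile normalization gave 0 members in 8R against NIC in CA3 polysome RNA, 2 in the polysome minus total response in CA1 and 1 in CA3, 2 in polysome against total RNA of NIC CA3, and 0 in CA1 against CA3 of NIC polysome RNA. Scaling arrays to the same median gave 0 in CA3 polysome RNA, 4 in the CA3 response difference and 0 in CA1 against CA3 of NIC polysome RNA. A fit of the compared groups alone gave 1 in CA3 polysome RNA and 1 in the CA3 response difference. Array weights gave 5 in the CA3 response difference and 1 member, Hsp90b1, in CA1 against CA3 of NIC total RNA. The replicate block by pool gave 5 in the CA3 response difference, as did the block over both regions (5) and leaving out pool 4 (5). Apart from these and the calls named beside the results (Hyou1 in CA3 total RNA, Canx and Pdia4 in the CA1 response difference, Hspa5 in NIC CA3), the paired fit by pool changed no call of a member. Leaving out 1 array at a time gave 0 to 2 members in CA3 polysome RNA, 2 to 5 in the CA1 response difference, 0 to 4 in the CA3 response difference and 2 to 5 in polysome against total RNA of NIC CA3. Leaving out arrays tests fewer samples, and the cause of the other changes was not tested. Dim transcripts such as Pdia4 have differences that the added 16 shrinks.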
